A study of Mus musculus with 2 samples.

Results

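The sirtuins are a family of 7 deacylase genes in the mouse, Sirt1 to Sirt7. They were taken from the table of liver transcripts by gene symbol, which gave 7 of the 45777 genes and 42 of the 129299 transcript rows. All 7 genes had at least 10 estimated counts in at least 1 library, as did 15857 genes in all. RNA had been sequenced from the livers of high-fat diet (HFD)-fed C57BL/6 mice that received an adeno-associated virus (AAV) with either GFP or Wee1-AS, a long noncoding RNA antisense to Wee1. The question of the study was what Wee1-AS does to the cell cycle and to metabolism in the fatty liver. The analysis rests on 1 library per group, although the series describes 4 liver samples. The differences therefore have no replicate check, and no p-value is given.

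The AAV-GFP library was the control. The mice, of the C57BL/6 N line, were 7 weeks old when the diet began, ate it for 18 weeks, and were injected behind the eye after 13 weeks, with 5 weeks left until the livers were taken. The AAV-Wee1-AS vector was AAV9 with a CMV promoter, which is not restricted to hepatocytes. For the AAV-GFP vector the serotype and promoter are not given in the sources used here. Both groups received an AAV and both ate the HFD, so the diet did not differ by design. The sex of the mice and whether livers were pooled are not given in the sources used here, and Wee1-AS itself was not analysed here. The libraries held 55466182 (AAV-GFP) and 48079335 (AAV-Wee1-AS) estimated counts. Of the 15857 genes with at least 10 estimated counts in a library, 22.2% were past 2-fold higher with Wee1-AS (a ratio above 2). A further 8.71% were past 2-fold lower (a ratio below 0.5). The hepatocyte markers that follow stand beside these shares of all genes. Their median log2 ratio was -0.012. Apoa1 (-0.26), Ttr (-0.62), Serpina1a (-0.012) and Tat (-0.50) were lower with Wee1-AS, while Alb, Cyp2e1 (0.21) and Apob were higher. The higher sum given next came mainly from Alb, with 2542754 counts in the control and 3065513 with Wee1-AS (log2 ratio 0.53). The hepatocyte markers Alb, Apoa1, Ttr, Apob, Serpina1a, Tat and Cyp2e1 summed to 8.27e+04 TPM (a level per transcript length that sums to the same total in each library) in the control and to 9.20e+04 TPM with Wee1-AS, and of the 7 Apob alone was past 2-fold, at a log2 ratio of 1.82, which became 0.063 once trends with GC content and length were removed.

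Sirtuins remove acyl groups from lysines and consume NAD+ in the reaction, which links them to the energy state of the cell. SIRT1, SIRT6 and SIRT7 are mainly nuclear, SIRT2 is mainly cytosolic, and SIRT3, SIRT4 and SIRT5 reside in mitochondria. In the liver they are known for deacylating enzymes of fatty acid oxidation and the urea cycle, and regulators of gluconeogenesis and lipid synthesis. Transcript levels measure neither the amount of a sirtuin protein nor its phosphorylation or activity.

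Shown are stretches just upstream of a transcript start in 3 sirtuin genes. Sirt1 was chosen as the 1 member with a higher level in the AAV-Wee1-AS library. Sirt2 and Sirt3, the most abundant members, were chosen because they have neighbours that start on the opposite strand close by. The stretches come from RefSeq windows of the build GRCm38.p6 and run 5′ to 3′ on the strand of the gene. They leave out bases covered by GENCODE M21 exons (those of retained-intron transcripts aside). Bases downstream of the start of any deposited transcript that begins in the window are left out too. Capitals mark the E-box (CACGTG, the same on both strands) and the GC box (GGGCGG, or CCGCCC on the other strand). Neighbouring GC boxes may overlap, and no E-box overlapped a GC box.
Sirt1, chr10:63339051-63339285, minus strand: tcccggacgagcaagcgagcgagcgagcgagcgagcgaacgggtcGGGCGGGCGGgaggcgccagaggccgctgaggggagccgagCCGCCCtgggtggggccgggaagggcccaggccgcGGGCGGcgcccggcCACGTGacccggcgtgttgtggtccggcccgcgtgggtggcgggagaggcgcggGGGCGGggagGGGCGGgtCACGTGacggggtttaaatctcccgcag
Sirt2, chr7:28766645-28766734, plus strand: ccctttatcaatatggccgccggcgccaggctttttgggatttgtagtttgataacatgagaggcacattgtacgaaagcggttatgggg
Sirt3, chr7:140881899-140881967, minus strand: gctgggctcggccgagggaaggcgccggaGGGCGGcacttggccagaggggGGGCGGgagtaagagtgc
The 250 bases before the Sirt1 start held 2 E-boxes, which began 115 and 43 bases before it, and 6 GC boxes. No other of the 9 sirtuin windows (2 genes have a pair of windows) held an E-box, which occurred in 6.02% of 32851 mouse windows of that length. The GC box occurred in 32.7% of them and in 6 of the 9 sirtuin windows. The Sirt1 window had a GC content of 79.2%, which placed it at percentile 98.4 of all windows. The window before the main Sirt3 start held 3 GC boxes, 2 of which lie in the stretch shown. That stretch lies inside the span of Sirt3 variant 1, which starts further upstream and closer to the opposite-strand neighbour. No stretch before the variant 1 start is shown. The Sirt2 window held 1 GC box, 187 bases before the start and outside the stretch shown, which holds neither motif. A motif match describes the sequence only.

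Sirt1 was higher with Wee1-AS and the other 6 sirtuins were lower, except that Sirt2, Sirt3 and Sirt7 turned to the other side of 0 once trends with base composition and length had been removed, and Sirt5 did so when its curated row alone was counted. Sirt1 was 3.73-fold higher in scaled counts, Sirt6 was 2.02-fold lower, and Sirt2, Sirt3, Sirt4 and Sirt5 were each lower by close to 1.5-fold. Sirt1 and Sirt6 were past 2-fold (a ratio above 2 or below 0.5), that is 2 of 7 members, while 4908 of 15857 genes (31%) were past it in either direction. Of all genes, 22.2% were past 2-fold higher and 8.71% past 2-fold lower. By upper-quartile scaling the split was 2938 higher and 2232 lower, in place of 3527 higher and 1381 lower. A log2 ratio below 0 was seen for 50.5% of genes and for 6 of 7 sirtuins. That share of genes rose with GC content. In the deciles of like GC content it was 75.2% for Sirt4, 83.6% for Sirt2 and Sirt3 and 92.1% for Sirt6 and Sirt7. It was 28.1% for Sirt5 and 11.5% for Sirt1. An exact (Clopper-Pearson) 95% interval wholly below 0 was seen for 38% of genes of any GC content and for the same 6 sirtuins. The interval covers counting error only, since reads amplified by PCR are not independent molecules.

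In the AAV-GFP library the levels descended from Sirt3 over Sirt2, Sirt7, Sirt5, Sirt4 and Sirt6 to Sirt1, and no neighbours in this order had overlapping intervals. Sirt3 stood at 129 TPM, Sirt2 at 69.2 TPM, Sirt7 at 29.1 TPM, Sirt5 at 24.95 TPM, Sirt4 at 6.32 TPM, Sirt6 at 2.54 TPM and Sirt1 at 0.873 TPM. In the AAV-Wee1-AS library the first 5 kept their places, and Sirt1 (3.25 TPM) stood above Sirt6 (1.21 TPM). There the intervals of Sirt4 (3.47 to 4.66 TPM) and Sirt1 (2.92 to 3.61 TPM) overlapped, so their order was not resolved. The 7 genes summed to 262 TPM with AAV-GFP and 178 TPM with AAV-Wee1-AS, and Sirt3 made up 49.3% and 48.2% of those sums. In bulk liver, fewer cells of a type and less RNA per cell cannot be told apart.

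**Figure D1:**
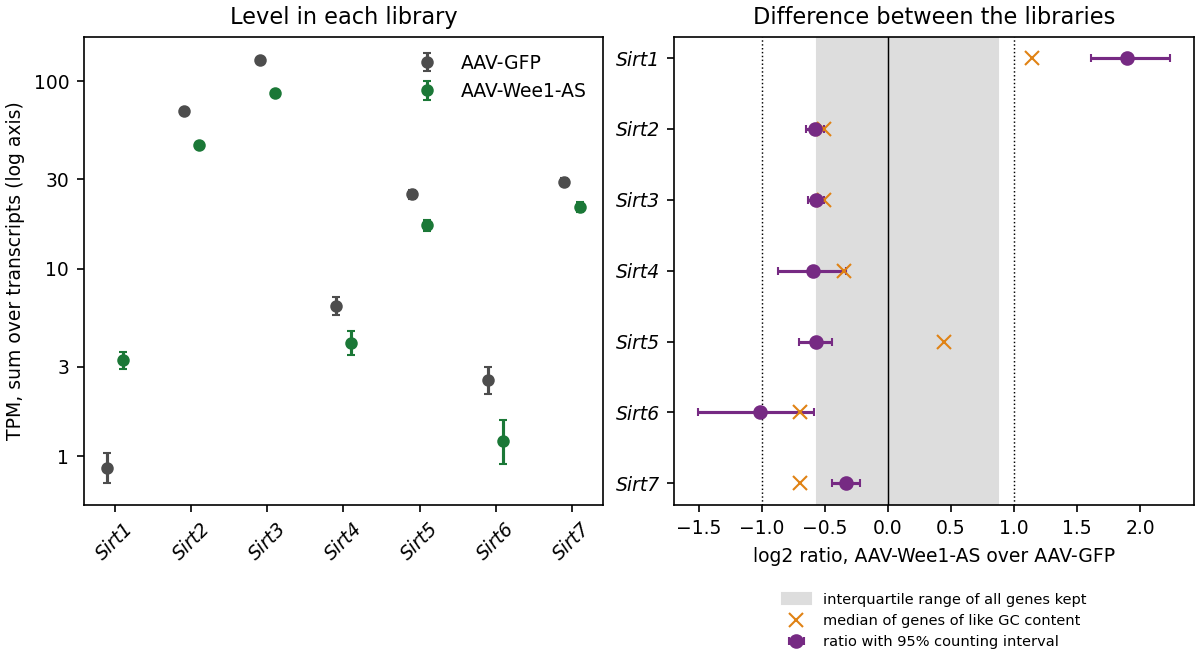
Left, TPM of each sirtuin in each library on a log axis, with the 95% counting interval as bars. Right, log2 ratio (AAV-Wee1-AS over AAV-GFP) with its 95% counting interval, the interquartile range of all genes as a grey band, the 2-fold limits as dotted lines, and the median ratio of genes in the same decile of GC content as a cross. Only Sirt1 lies right of 0, and only its interval lies wholly past 2-fold, in these counts scaled by TMM and before removal of the trends with base composition and length, which turned Sirt2, Sirt3 and Sirt7.

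The log2 ratio moved with the base composition of transcripts across all genes, and this bears on every sirtuin value. In the decile of genes with the lowest GC content (30.96 to 42.06%) the median log2 ratio was 1.49, and in the decile with the highest (58.14 to 72.83%) it was -0.69. Sirt1, at 42.9% GC, belongs to a decile with a median of 1.14, and its own ratio of 1.899 lay above the upper quartile of that decile (1.71). Sirt2 (55.5% GC) and Sirt3 (55.4% GC) belong to a decile with a median of -0.51. Sirt4 (53.5% GC) belongs to one with a median of -0.35, and Sirt6 and Sirt7 (both 58.4% GC) to the one with -0.69. The ratios of Sirt2, Sirt3, Sirt4 and Sirt6 were thus near or below those of genes of like GC content. That of Sirt7 (-0.33, all rows summed) was above the upper quartile of its decile (-0.44). The mRNA rows of Sirt7 alone stood at -0.95, below the lower quartile of that decile (-0.93), and its noncoding rows at 2.84.

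Sirt5 was the member farthest below its decile. Its ratio of -0.57 stood against a median of 0.44 and a lower quartile of -0.06 for genes of like GC content (47.4%, read from the longest annotated transcript). The curated Sirt5 transcript has 51.7% GC, whose decile has a median of -0.12 and a lower quartile of -0.48. After trends with GC content and transcript length had been removed from all genes, the log2 ratios were 0.68 for Sirt1, 0.08 for Sirt2, 0.12 for Sirt3, -0.04 for Sirt4, -0.82 for Sirt5, -0.21 for Sirt6 and 0.45 for Sirt7. None was then past 2-fold, beside 13.95% of the 15100 genes with a GC content. Of the 7 members, 3 were below 0, and Sirt2, Sirt3 and Sirt7 had changed direction. The part of base composition in the difference between the libraries was not tested.

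**Figure D2:**
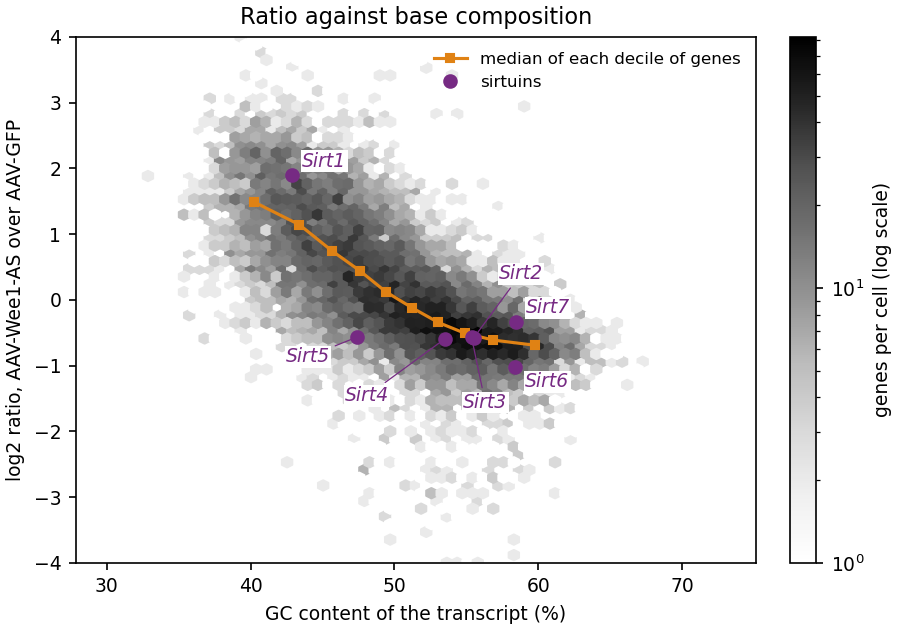
Log2 ratio (AAV-Wee1-AS over AAV-GFP, drawn within 4 of 0) of each gene against the GC content of its transcript in percent, with the number of genes per cell as shade. Squares give the median ratio of each decile of genes at its median GC content, falling from 1.49 to -0.69, and the sirtuins are named; Sirt1 lies above the line and Sirt5 below it.

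Among the nuclear members, Sirt1 (chr10:63319005-63339035 in mm10, as are the positions that follow) encodes the deacetylase of PGC-1α, FOXO proteins and p53. It had 113 counts with AAV-GFP and 356 with AAV-Wee1-AS. The log2 ratio was 1.899 (1.61 to 2.24), and it was the 1 sirtuin whose whole interval lay past 2-fold. Its interval overlapped that of no other sirtuin. Nearly all counts came from variant 1 (113 and 355), which encodes 737 residues, while variant 2, with 698 residues, had 0 and 1. Sirt1 was also the least abundant sirtuin of the control library, at percentile 28.3 of all genes kept by TPM.

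Sirt6 (chr10:81621786-81627792) encodes a histone H3 deacetylase that represses glycolytic genes. It had 143 counts with AAV-GFP and 58 with AAV-Wee1-AS, the fewest of the family in the latter. The log2 ratio was -1.02 (-1.50 to -0.59), so the interval spans the 2-fold limit on which the value sits. Variant 1 (334 residues) had 123 and 44 counts, a log2 ratio of -1.19 (-1.75 to -0.71). Variant 2 (294 residues) had 15 and 6 counts, and its interval (-2.71 to 0.39) includes 0.

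Sirt7 (chr11:120618371-120625014) encodes a deacetylase tied to ribosomal RNA transcription. It had 1688 counts with AAV-GFP and 1116 with AAV-Wee1-AS, a log2 ratio of -0.33 (-0.44 to -0.22). This was the smallest difference of the 7 genes, and it hid opposite differences of its transcript rows. The mRNA rows had 1620 and 700 counts (log2 ratio -0.95, -1.08 to -0.82), while the rows annotated as misc_RNA, that is noncoding, had 68 and 416 counts (2.84, 2.50 to 3.27). Their share of the gene was 4.03% (3.14 to 5.08) with AAV-GFP and 37.3% (34.4 to 40.2) with AAV-Wee1-AS.

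The noncoding Sirt7 rows span the same locus as variant 1, within a few bases at each end, and are longer. Variant X1 (43 and 271 counts) exceeds variant 1 by 614 bases, and variant X3 (25 and 145 counts) exceeds it by 80 bases. They must therefore hold sequence that variant 1 splices out. Among 2094 genes that have both kinds of row and at least 100 counts in each library, the misc_RNA share was higher by over 10 points in 309 (14.8%) and lower by over 10 points in 211. A gain at least as large as the 33.3 points of Sirt7 was seen in 74 genes (3.53%). This comparison was chosen after the Sirt7 values had been seen.

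Sirt2 (chr7:28766752-28788665) encodes the tubulin deacetylase, which also acts on gluconeogenic enzymes and is the main cytosolic member. It had 4180 counts with AAV-GFP and 2334 with AAV-Wee1-AS, a log2 ratio of -0.58 (-0.65 to -0.50), or 1.49-fold lower. Its transcripts kept their proportions. Variant 2 (352 residues) held 61.6% and 61.5% of the counts, and variant 1 (389 residues) 38.1% and 38.5%. Variant 3 (319 residues) had 11 counts in the AAV-GFP library and was listed at 0 in the other. With a floor of 3 counts in place of 0, and the 11 counts taken as exact, this is 3.05-fold lower. The interval of its log2 ratio ends at -1.06.

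Among the mitochondrial members, Sirt3 (chr7:140863663-140882309) encodes the main mitochondrial deacetylase, whose targets include SOD2, IDH2 and long-chain acyl-CoA dehydrogenase. It had 6044 counts with AAV-GFP and 3391 with AAV-Wee1-AS, a log2 ratio of -0.57 (-0.63 to -0.51), or 1.48-fold lower. It was the most abundant sirtuin in both libraries, at percentile 93.7 of all genes kept in the control. Variant 2 held 73.5% and 70.3% of its counts and variant 3, which is 8 bases shorter, 20.7% and 21.7%. Variant 1 starts further upstream and had 171 and 72 counts (log2 ratio -0.97, -1.40 to -0.58), and its share was 2.83% (2.43 to 3.28) and 2.12% (1.66 to 2.67). Predicted variants X1 (89 and 100 counts, log2 ratio 0.42, 0.0051 to 0.86) and X2 (91 and 99 counts, 0.38, -0.040 to 0.81) stood on the other side of 0 from the gene. The share of X1 was 1.47% (1.18 to 1.81) and 2.95% (2.41 to 3.58) and that of X2 1.51% (1.21 to 1.85) and 2.92% (2.38 to 3.54), so that the intervals of both lay apart, as did those of variant 2 (72.4 to 74.6 and 68.7 to 71.8). Such intervals lay apart for 10 of the 23 sirtuin rows with at least 10 counts and for 66.4% of 34212 such rows over all genes with several rows, so a separation of this kind was common.

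Sirt4 (chr5:115478006-115490264) encodes a mitochondrial enzyme that acts as lipoamidase and ADP-ribosyltransferase and is known to restrain glutamate dehydrogenase. It had 329 counts with AAV-GFP and 181 with AAV-Wee1-AS, a log2 ratio of -0.59 (-0.87 to -0.33). Variant 2 (333 residues) held 94.8% and 92.8% of the counts, and 5 of its 11 rows were at 0 in both libraries. Variant 1, from whose start the RefSeq window of Sirt4 was cut, was among these, so the window covers only part of the bases before the start of variant 2.

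Sirt5 (chr13:43365389-43395203) encodes the enzyme that removes succinyl, malonyl and glutaryl groups, with carbamoyl phosphate synthetase 1 as a known target. It had 1346 counts with AAV-GFP and 755 with AAV-Wee1-AS, a log2 ratio of -0.57 (-0.70 to -0.44). Its rows differed in opposite directions. The curated row (310 residues) had 141 and 293 counts (log2 ratio 1.31, 1.02 to 1.62), and its share of the gene was 10.5% (8.89 to 12.2) with AAV-GFP and 38.8% (35.3 to 42.4) with AAV-Wee1-AS. Predicted variant X6 had 440 and 145 counts (-1.33, -1.62 to -1.06) and X8 had 163 and 14 (-3.12, -4.18 to -2.49). Variants X1 (358 and 181 counts) and X7 (201 and 96 counts) were lower as well, while X2 (13 and 4 counts) and X10 (13 and 8 counts) had few and the other 4 rows no more than 8 in a library.

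The Sirt5 rows end at 1 of 2 sites, and the division between these differed far less than that between rows. The 7 rows ending at the upstream site held 29.8% (27.4 to 32.3) and 27.4% (24.3 to 30.7) of the counts, with overlapping intervals. The 4 rows ending at the downstream site, the curated row among them, held 70.2% and 72.6%. Rows of 1 gene share most of their sequence, and the deposited counts are estimates that divide shared reads among them, so a shift between rows is less certain than the gene's sum.

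**Figure D3:**
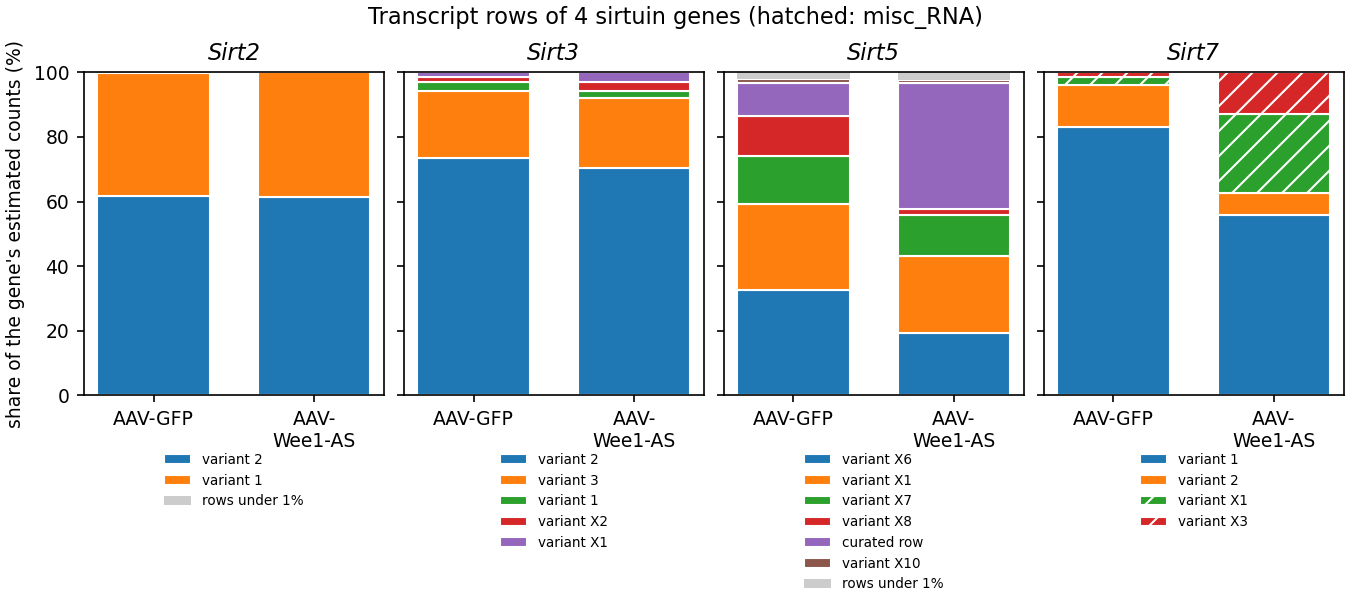
Share of each gene's estimated counts (percent) held by its transcript rows in each library, for Sirt2, Sirt3, Sirt5 and Sirt7, with noncoding misc_RNA rows hatched. The main row of Sirt3 held 73.5% and 70.3%, the curated row of Sirt5 held 10.5% and 38.8% and the misc_RNA rows of Sirt7 4.03% and 37.3%.

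Over the family, 23 of 42 rows had at least 10 counts in a library, of which 4 were past 2-fold higher and 6 past 2-fold lower. Among the 39605 rows kept of all genes, 31.7% were past 2-fold higher and 22.7% past 2-fold lower. A further 7 sirtuin rows were at 0 in both libraries. The higher rows were Sirt1 variant 1, the curated Sirt5 row and Sirt7 variants X1 and X3. The lower rows were Sirt2 variant 3, Sirt5 variants X2, X6 and X8, Sirt6 variant 1 and Sirt7 variant 2.

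Near the sirtuins, 3 genes start on the opposite strand. Nfkbib, an inhibitor of NF-κB, starts 108 bases from Sirt2 on the opposite strand and had 1233 and 668 counts (log2 ratio -0.62, -0.76 to -0.48), against -0.58 for Sirt2. Psmd13, a proteasome subunit, starts 85 bases from the upstream start of Sirt3 and 525 bases from that of its most counted transcript, on the opposite strand, and had 7059 and 3836 counts (-0.62, -0.67 to -0.56), against -0.57 for Sirt3 as a whole and -0.97 for the variant at the upstream start. The intervals of each of these gene pairs overlapped, but so did those of Sirt2 and Sirt5, which lie on different chromosomes. Ankrd24 starts 213 bases from variant 1 of Sirt6, its most counted transcript, and 29 bases from the outermost Sirt6 start, that of predicted variants with few counts. It had 122 and 90 counts (-0.17, -0.58 to 0.23), against -1.02 for Sirt6, whose interval ends at -0.59. Ric8a overlaps the last 69 bases of Sirt3 on the opposite strand and had 1432 and 897 counts (-0.41), so reads in that stretch can be told apart only if strand was used in counting. The library kit keeps the strand, but the strand setting used for quantification is not given in the sources used here. Mir6936, which lies within Sirt7, had 4 and 5 counts. In Sirt2, Gm19897 had 0 counts in both libraries, and in Sirt4 the genes Gm42007 (4 and 5 counts), LOC115490316 (6 and 0) and LOC115490317 (2 and 3) were near the floor.

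Genes of NAD+ metabolism, which supply or compete for the sirtuins' cosubstrate, were past 2-fold higher in 10 cases. Of 28 genes kept from 29 listed, 10 were thus higher (beside the 22.2% of all genes), 1 was past 2-fold lower and 17 were within, with a median log2 ratio of 0.53, against -0.02 over all genes. In de novo synthesis from tryptophan, 3 of 8 were higher and none lower. Tdo2, the first enzyme of that path, had 16398 and 49900 counts (log2 ratio 1.87, 1.844 to 1.895). Kmo, kynurenine monooxygenase, had 9248 and 17843 counts (1.21), and Acmsd, which diverts the path away from NAD+, had 155 and 400 counts (1.62). In salvage, 3 of 7 were higher, Nampt, Nmrk1 and Nmnat2, the last with 12 and 28 counts.

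Nampt, the rate-limiting enzyme of NAD+ salvage, had 840 counts with AAV-GFP and 3098 with AAV-Wee1-AS (log2 ratio 2.14, 2.04 to 2.26). Nmrk1, which phosphorylates nicotinamide riboside, had 359 and 1106 counts (1.88). Naprt, which uses nicotinic acid and had the most counts of that list, had 8379 and 4727 (-0.56). Of the 4 genes for NAD+ phosphorylation and transport, Nadk2, the mitochondrial NAD+ kinase, was past 2-fold with 1393 and 4570 counts (1.98), while the cytosolic kinase Nadk had 16924 and 10034 (-0.49). Among 9 consumers, the tankyrases Tnks (273 and 806 counts, 1.82) and Tnks2 (520 and 1716 counts, 1.98) and the nicotinamide methyltransferase Nnmt (3975 and 7208 counts, 1.12) were higher, and Bst1, with 16 and 5 counts, was lower with an interval that includes 0.

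The NAD+ genes past 2-fold were mostly of low GC content, as Sirt1 was. Nampt has 40.3% GC and Tdo2 39.6% GC. After the trends had been removed, 3 of the 28 genes were past 2-fold higher and 1 lower, with a median of 0.35, while 972 of all 15100 genes with a GC content were past it higher and 1135 lower (13.95% together). Nampt then stood at 0.59 and Tdo2 at 0.71, while Nnmt (51.1% GC) stood at 1.42. The others past it were Nmnat2 and Nmrk1 above and Bst1 below.

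**Figure D4:**
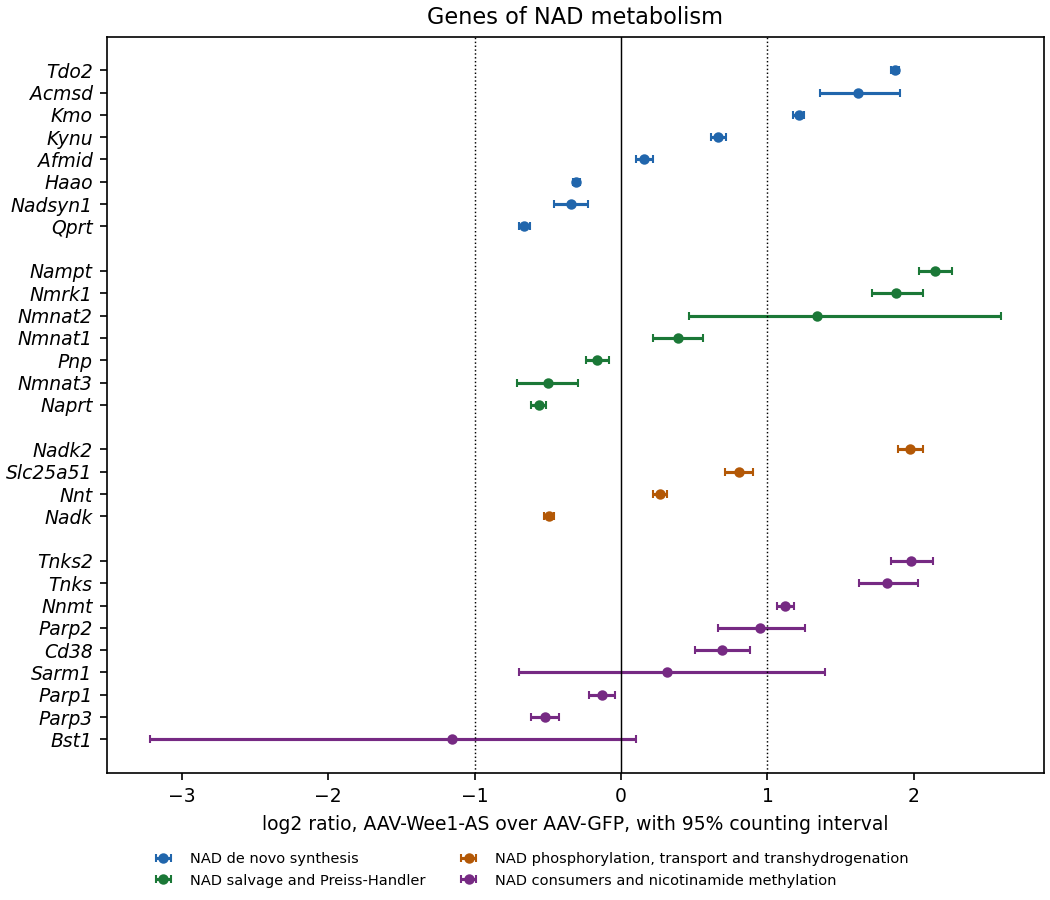
Log2 ratio (AAV-Wee1-AS over AAV-GFP) with its 95% counting interval for the 28 genes of NAD+ metabolism kept, grouped by pathway step, with the 2-fold limits as dotted lines. Points right of the upper limit number 10 (Nampt, at 2.14, lies farthest), and Bst1 alone lies left of the lower limit.

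Among 8 regulators of SIRT1, 2 were past 2-fold higher and none lower, beside 22.2% and 8.71% of all genes. Csnk2a1, a catalytic subunit of casein kinase 2, had 1807 and 3269 counts (log2 ratio 1.12, 1.04 to 1.20). Senp1, a SUMO protease, had 193 and 330 (1.03, 0.78 to 1.30). Of 13 SIRT1 substrates in hepatic metabolism, 1 was past 2-fold (beside 31% of all genes), Ppargc1a, the coactivator of mitochondrial biogenesis (103 and 216 counts, 1.31, 0.99 to 1.69). The substrates with the most counts were Hnf4a, with 28995 and 23096 (-0.06), and Srebf1, with 33483 and 18436 (-0.60). After removal of the trends no gene of either list was past 2-fold, beside 13.95% of the 15100 genes with a GC content. Of the regulators, 1 was past it under library totals and 0 under upper-quartile scaling, beside 30.9% and 32.6% of all genes. Of the substrates, 4 were past it (2 higher, 2 lower) with curated transcripts alone, beside 33.9% of all genes, and 3 with the most counted transcript alone, beside 36.6%.

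Of 22 genes for substrates of the mitochondrial sirtuins, 3 were past 2-fold higher and 2 lower, with a median of -0.13, beside 22.2% and 8.71% of all genes. The urea cycle genes Cps1 (63481 and 122243 counts, 1.21) and Otc (5871 and 15740 counts, 1.69) and the fusion GTPase Opa1 (2035 and 4504 counts, 1.41) were higher. Idh2, the mitochondrial isocitrate dehydrogenase, had 10901 and 4440 counts (-1.03, -1.08 to -0.98), and Acss1 had 19 and 6. Of 12 partners and targets of SIRT6 and SIRT7, 2 were past 2-fold higher, Hif1a (704 and 1411 counts, 1.26) and Elk4 (351 and 686 counts, 1.22), and none was lower, against the same shares of all genes, while Ldha, with the most counts, stood at -0.39. After removal of the trends, 2 of the mitochondrial list were past 2-fold, both lower (Sod2 at -1.14 and Acss1 at -1.06), and none of the SIRT6 and SIRT7 list. Of the 15100 genes with a GC content, 972 were then past it higher and 1135 lower. Before removal Sod2, with 7659 and 7027 counts, stood at 0.14, on the other side of 0.

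The zinc-dependent deacetylases, the other deacetylase family, are the genes most like the sirtuins in function. Of 11, 1 was past 2-fold higher and 1 lower (22.2% and 8.71% of all genes were). Their median log2 ratio was -0.28, beside -0.57 for the 7 sirtuins and -0.02 for all genes. With the trends removed this order was reversed, at -0.18 for the zinc-dependent deacetylases and 0.082 for the sirtuins. Hdac2, a nuclear class I enzyme, had 288 and 689 counts (1.51, 1.32 to 1.73), and Hdac11, the member with the most counts, had 7268 and 2841 (-1.09, -1.16 to -1.03). After removal of the trends, Hdac2 stood at 0.77 and Hdac11 at -0.43, and Hdac9 alone, with 11 and 17 counts, was past 2-fold, on the lower side at -1.19. Of the 15100 genes with a GC content, 972 were then past it higher and 1135 lower. Before removal Hdac9 stood at 0.78, on the other side of 0. Curated transcripts alone gave 4 of 10 past 2-fold, beside 33.9% of all genes, and the most counted transcript alone 5 of 11, beside 36.6%.

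Markers of other cell types were measured beside these values. Their counts past 2-fold, before removal of the trends, stand against 22.2% of all genes higher and 8.71% lower. Of 8 stellate cell and fibroblast markers, 4 were past 2-fold lower (Col1a1, Col3a1, Acta2 and Pdgfrb) and 1 higher (Lrat), their summed level being 169 TPM in the AAV-GFP library and 130 TPM in the other, and Col1a1 had 3620 and 603 counts. Macrophage markers summed to 222 TPM in both libraries, with 4 of 8 past 2-fold higher (Cd163, Vsig4, Marco and Timd4) and none lower. After removal of the trends, 972 of the 15100 genes with a GC content were past 2-fold higher and 1135 lower. Beside these, 3 stellate cell and fibroblast markers were past it lower and none higher (Lrat at -0.07, Pdgfrb at -0.96). Of the macrophage markers, 2 were past it higher, Cd163 at 2.17 and Marco at 2.18 (Vsig4 at 0.87, Timd4 at 0.65). None of 6 endothelial and none of 5 cholangiocyte markers was past 2-fold. Erythroid markers summed to 2037 and 1100 TPM. Their median log2 ratio was -0.89, and 0.096 after removal of the trends. Neutrophil markers summed to 13.03 and 6.18 TPM, with Ly6g at 0. Of the 3 neutrophil markers kept, 2 were past 2-fold lower, S100a9 and Retnlg. They stood at -1.65 and -1.59 after removal of the trends. B cell markers (2.24 and 1.38 TPM) and T and NK cell markers (3.63 and 2.72 TPM) were low. Of 3 B cell markers, 1 was past 2-fold higher (Ms4a1) and none lower. Of 5 T and NK cell markers, 2 were past 2-fold lower (Cd8a and Nkg7) and none higher. Against the sum of its list, Ms4a1 had 0 and 23 counts, while Cd8a had 31 and 4 (-2.25, -4.65 to -1.19). The markers with the most counts stood at -2.03 (Col3a1, stellate cells and fibroblasts), -0.15 (Clec4f, macrophages), -0.27 (Stab2, endothelium), -0.21 (Spp1, cholangiocytes), -0.93 (Hbb-bs, erythroid cells), -1.31 (S100a9, neutrophils), -0.95 (Cd79a, B cells) and -0.02 (Cd3e, T cells). The adipocyte markers Plin1 and Lep, the muscle markers Ckm and Acta1 and the pancreas markers Prss2 and Ctrb1 were at 0 in both libraries. Of the same lists, Adipoq had 2 and 2 counts, Myh1 4 and 0, and the pancreas marker Cela1 616 and 741 (log2 ratio 0.53, and 1.19 after removal of the trends). The part of these cells in the sirtuin differences was not tested.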

How the data were processed

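Livers of HFD-fed mice were measured by poly-A RNA sequencing in 2 libraries, AAV-GFP and AAV-Wee1-AS, each 1 sample. The authors deposited, per library, estimated counts, FPKM and TPM of transcripts on the build mm10. The submitters' processing notes name Trimmomatic 0.38, HISAT2 2.1.0, SAMtools 1.9 and StringTie 2.1.3b. Their settings, also for strand, are not given in the sources used here, although the library kit keeps the strand per the labels. The deposited estimated counts follow FPKM times transcript length (within 1 count for 98.2% and 98.5% of rows), so reads shared by transcripts were divided among them. The deposited values are not reads counted anew.

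Estimated counts were summed over the rows of a symbol. Scaling was by TMM factors over all genes (edgeR 4.0.16, R 4.3.3), with a prior count of 2 for log2 ratios. A gene was kept if either library held 10 or more counts of it. Exact 95% intervals of ratios and shares cover counting error only. Levels are sums of the deposited TPM. GC content came from GENCODE M21 transcripts for 15100 genes (95.2% of those kept), by the same RefSeq transcript for 11126 of them. Trends with GC content and length were removed by lowess fits (span 0.3, 5 cycles). RefSeq windows held the 250 bases before a start. Python 3.11.15, numpy 2.4.6, pandas 2.3.3, scipy 1.17.1, statsmodels 0.14.6 and matplotlib 3.10.9 were used. The scaling, the gene ratio intervals and the trend removal were run on simulated counts that held counting error only. Transcript shares and sequence windows were not part of that simulation.

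The members and gene lists were chosen with earlier results of these data known. Named were all sirtuins, their rows with at least 10 counts, genes that overlap them or start within 1000 bases, listed genes whose whole interval lay past 2-fold, and the listed gene with the most counts, of which 1 is not reported here. A few more listed genes past 2-fold were named after their values were seen. The alternatives tried were size factors of DESeq2 1.42.0, library totals, upper-quartile scaling, no filter, at least 10 counts in both libraries, a prior count of 0.5, FPKM or TPM with a pseudocount of 1, curated transcripts only, the most counted transcript only and removal of the trends.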

Additional observations from a re-analysis of the deposited data

How the results depend on the processing

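The 6 lower sirtuins stayed below 0 and Sirt1 above it under library totals, DESeq2 size factors, the upper quartile, both other filters, a prior count of 0.5 and the deposited FPKM and TPM. Upper-quartile scaling moved the median of all genes by -0.20 and gave -0.78 for Sirt2, -0.78 for Sirt3, -0.78 for Sirt5 and -0.54 for Sirt7. With FPKM + 1, Sirt1 stood at 0.87 and Sirt6 at -0.52, 0 sirtuins and 1336 genes being past 2-fold, and with TPM + 1 Sirt1 stood at 1.18, with 1 sirtuin and 2046 genes past it. A pseudocount lowers the ratios of genes as weakly expressed as Sirt1 and Sirt6. Curated transcripts alone reversed Sirt5 to 1.31 and gave -0.95 for Sirt7. In the AAV-GFP library they also placed Sirt4 at rank 4 and Sirt5 at rank 5. The most counted transcript alone gave -0.63 for Sirt3, -1.33 for Sirt5 and -0.91 for Sirt7. Removal of the trends gave 0.68 for Sirt1, -0.035 for Sirt4, -0.82 for Sirt5 and -0.21 for Sirt6, reversed Sirt2 to 0.082, Sirt3 to 0.12 and Sirt7 to 0.45, and left 0 sirtuins and 2107 genes past 2-fold (972 higher, 1135 lower). The cause was not tested. As shares of TPM, the curated Sirt5 row held 12.5% and 44.9% and the misc_RNA rows of Sirt7 held 32.7% in the AAV-Wee1-AS library. TMM factors over the kept genes alone were used in a first run, after which the main scaling was changed to factors over all genes. Those of the first run, an alternative that was not planned, gave -1.002 for Sirt6 and the same 2 sirtuins past 2-fold. No paired analysis was possible because each group has 1 library. Depth limits Sirt6 most, with 58 counts in the AAV-Wee1-AS library.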

Other observations

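Genes of the circadian clock, which is known to be coupled to SIRT1 and to Nampt, were looked at as a further list. Of 13 genes kept, 4 were past 2-fold higher (Clock, Nr1d2, Cry1 and Per3) and 2 lower (Nr1d1 and Npas2), with a median log2 ratio of 0.25, beside 22.2% of all genes past 2-fold higher and 8.71% lower. Under library totals 3 were higher and 2 lower, beside 30.9% of all genes in either direction. Under upper-quartile scaling 2 were higher and 2 lower, with a median of 0.041, beside 32.6% of all genes. Clock, a transcription factor that binds E-boxes, had 186 counts in the control and 914 with Wee1-AS (log2 ratio 2.55, 2.33 to 2.80). The paralogous repressors of the loop stood on opposite sides, with Nr1d1 at 7777 and 2733 counts (-1.25, -1.31 to -1.18) and Nr1d2 at 666 and 3389 counts (2.61, 2.49 to 2.73). Npas2 had 15 counts and 0, and Tef, with 9871 and 8851 counts, stood at 0.11. The hour at which the livers were taken is not given in the sources used here. After removal of the trends with GC content and length, 2 of the list were past 2-fold higher (Nr1d2 and Cry1) and 1 lower (Npas2), beside 13.95% of all genes in either direction, and Clock (40.9% GC) stood at 0.53 while Nr1d2 (41.8% GC) stood at 1.14.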
